A study of Homo sapiens with 12 samples.

Results

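The transforming growth factor β (TGF-β) genes described here are 4 ligands (TGFB1, TGFB2, TGFB3 and INHBA), 3 receptors (TGFBR1, TGFBR2 and TGFBR3), 2 SMADs (SMAD3 and SMAD7) and the secreted protein TGFBI. They were chosen by gene name, 10 of the 32152 genes with a value, and all 10 passed the filter on low values that left 13737 protein-coding genes for testing. Bulk RNA was sequenced from MDA-MB-231 and Hs-578T, established triple-negative breast cancer cell lines of mesenchymal shape. There were 12 libraries in 6 groups of 2: for each line, parental controls, cells labelled ERK5-ko and cells labelled MEK5DD. ERK5-ko cells were made with CRISPR/Cas9 guides against MAPK7, the gene of the kinase ERK5, and MEK5DD stands for MEK5 that is always active, which is the upstream kinase of ERK5. In MDA-MB-231 the knockout line was the only clone that survived, and which Hs-578T clone was sequenced is not given in the sources used here, nor is how the MEK5DD cells were made. The labels give passages 29 and 30 for MDA-MB-231 parental controls, 7 and 8 for ERK5-ko and 10 and 11 for MEK5DD. In Hs-578T they give 83 and 84 for parental controls, and 8 and 9 for both ERK5-ko and MEK5DD. For the cells from which the knockout lines were made, the paper gives passages higher than those of the ERK5-ko libraries. Whether the ERK5-ko passages count from that step is not given. ERK5-ko cells were also grown from sorted single cells. Against parental controls, the effects of passage, of growth from single cells and of genotype cannot be told apart.

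TGF-β ligands are secreted in a latent form, are freed outside the cell and bring type II and type I receptors together, and the type I receptor then phosphorylates SMAD2 and SMAD3. These join SMAD4 in the nucleus and change transcription, and SMAD7, itself a target, blocks the receptor. In mesenchymal breast cancer cells the pathway is known for its part in epithelial-to-mesenchymal transition, matrix production and invasion. INHBA encodes the subunit of activin A, a related ligand that signals through the same SMADs.

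To show the DNA in front of 3 genes whose groups did not overlap within a line, the bases before their RefSeq starts (GRCh38.p14) are given 5′ to 3′, with matches to the E-box letters CACGTG in capitals. TGFB2 (chr1:218345086-218345335, plus strand) is shown as the ligand that rose in both lines with the ERK5-ko label, and TGFB3 (chr14:75983012-75983261, minus strand) as the ligand that fell in Hs-578T with that label. TGFBR2 (chr3:30606351-30606600, plus strand) is shown as the receptor that was lower with one modification and higher with the other in MDA-MB-231.
TGFB2: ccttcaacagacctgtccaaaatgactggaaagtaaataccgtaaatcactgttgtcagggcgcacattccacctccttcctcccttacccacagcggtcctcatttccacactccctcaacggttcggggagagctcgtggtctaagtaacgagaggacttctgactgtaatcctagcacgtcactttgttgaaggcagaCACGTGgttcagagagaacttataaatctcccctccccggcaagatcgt
TGFB3: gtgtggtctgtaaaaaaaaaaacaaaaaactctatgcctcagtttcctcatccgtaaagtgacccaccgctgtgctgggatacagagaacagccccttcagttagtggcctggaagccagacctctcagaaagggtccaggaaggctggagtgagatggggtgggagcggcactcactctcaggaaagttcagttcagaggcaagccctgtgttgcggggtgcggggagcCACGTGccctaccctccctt
TGFBR2: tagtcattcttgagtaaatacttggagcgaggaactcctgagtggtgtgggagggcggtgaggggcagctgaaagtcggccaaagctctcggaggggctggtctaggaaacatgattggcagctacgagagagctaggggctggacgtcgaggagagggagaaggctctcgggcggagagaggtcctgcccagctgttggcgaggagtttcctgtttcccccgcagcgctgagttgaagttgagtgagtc
The E-box in TGFB2 starts at position -49 and that in TGFB3 at position -20 from the RefSeq start. The authors' gene model of TGFB2 starts 899 bases farther downstream. Their model of TGFBR2 starts at 30606502, inside the window shown, so the last bases of that window lie within the model. RefSeq lists 25 starts for the 10 genes, and 3 of these windows of 250 bases, 1 each for TGFB2, TGFB3 and SMAD3, hold CACGTG, a share to set beside 6.34% of all 35116 windows of this length. Both strands were searched. The AP-1 letters TGANTCA were in 1 window, of SMAD3 (6.57% of all windows), the cAMP response element TGACGTCA was in 0 (1.65%) and the SMAD palindrome GTCTAGAC was in 0 (0.182%). The short SMAD-binding letters CAGAC, left in lower case, was in 10 windows of 5 genes (38.0% of all windows). These matches describe letters and not binding.

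Library totals lay between 20248162 and 27791195 reads, and the lowest count behind any value of the 10 genes was 22 reads, for INHBA. MAPK7 RNA was at 13.3 to 18.1 RPKM (reads scaled to the length of the gene model and to the size of the library) in all libraries. For the ERK5-ko label its log2 fold change was 0.29 in MDA-MB-231 (adjusted p = 0.0709) and 0.26 in Hs-578T (adjusted p = 0.0624). Levels of RNA thus do not show the knockout, for which the paper reports loss of ERK5 protein by Western blot in both lines. The libraries are named by their labels below. MAP2K5, the gene of MEK5, had a mean of 186 RPKM in MDA-MB-231 MEK5DD against 13.2 in parental controls, and of 22.5 against 15.8 in Hs-578T. VIM lay between 1598 and 4067 RPKM and CD44 between 819 and 1695, while ESR1 stayed at or below 0.12 and PGR at or below 0.348. ERBB2 RNA, which the triple-negative class would place low, was at 27.8 to 56.8 RPKM. Leukocyte markers summed to at most 2.21 RPKM over 4 genes, endothelial markers to at most 6.7 over 3, and ALB was at most 0.116. Luminal markers summed to between 194 and 1842 RPKM over 4 genes. Nearly all of this came from 2 keratins. KRT8 lay between 595 and 1146 RPKM in MDA-MB-231 and between 27.9 and 71 in Hs-578T. KRT18 lay between 328 and 692 in MDA-MB-231 and between 141 and 596 in Hs-578T. GATA3 stayed between 3.77 and 9.34 in all libraries. FOXA1 was at most 0.0638 in MDA-MB-231 and between 0.845 and 1.85 in Hs-578T. In Hs-578T MEK5DD, replicate 2 was higher than replicate 1 in all 10 genes, by 1.06 to 1.41 times, where 58.3% of tested genes were higher. In the Hs-578T parental controls it was higher in 9 of 10, where 51.4% of tested genes were higher, and the deviations of these 2 groups by replicate number had a correlation of 0.541 over genes. The part of these shifts in the Hs-578T results was not tested. In bulk RNA, fewer cells of a kind and less RNA per cell cannot be told apart.

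**Figure D1:**
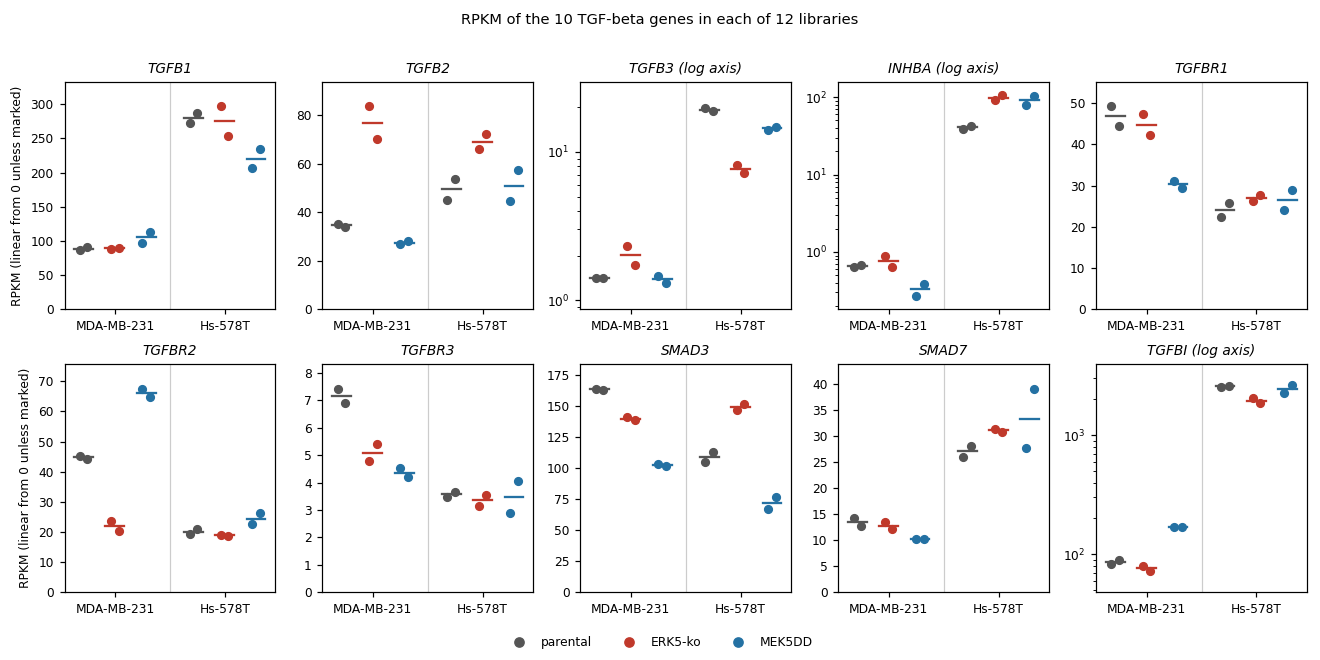
RPKM of each of the 10 genes (vertical axes, linear from 0, or log where the title says so) in the 12 libraries, grouped by cell line, with 1 point per library and a line at the mean of each group of 2. In MDA-MB-231, TGFBR2 sits at 20.3 and 23.5 with ERK5-ko, under both parental controls, and at 64.8 and 67.5 with MEK5DD, above them.

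Which of these genes differed from parental controls was asked in 4 comparisons, with limma fitted across all tested genes and a threshold of 0.05 on the adjusted p. With 2 libraries a group, the smallest p of an exact permutation test on 1 gene is 0.333, so the tests rest on the spread over all 6 groups. In MDA-MB-231 labelled ERK5-ko, 1 of the 10 genes was higher (TGFB2) and 2 were lower (TGFBR2 and TGFBR3), where 6.91% of all tested genes were higher and 10.4% lower. Once the replicate number entered as a block, 5 genes passed in place of 3. In MDA-MB-231 MEK5DD, 2 were higher (TGFBI and TGFBR2) and 5 lower (SMAD3, TGFBR3, TGFBR1, INHBA and SMAD7), beside 17.5% and 23.8% of all genes. In Hs-578T labelled ERK5-ko, 3 were higher (INHBA, TGFB2 and SMAD3) and 2 lower (TGFB3 and TGFBI), beside 19.7% higher and 19.7% lower of all genes. Of these 5, 3 still passed without ERK5-ko replicate 2, and 3 of the 10 genes passed with the line's own libraries alone. In Hs-578T MEK5DD, 1 was higher (INHBA) and 3 lower (SMAD3, TGFB3 and TGFB1), beside 6.44% and 17.0%. Of these 4, 2 still passed without either parental replicate, and 2 of the 10 genes passed with the line's own libraries alone. The comparisons within a line share their parental controls. The median absolute log2 fold change of the 10 genes was 0.20, 0.53, 0.30 and 0.27 in the order above, and that of all tested genes was 0.17, 0.27, 0.27 and 0.20.

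Adding the fold thresholds used in the study, above 1.5 for a rise and below 0.5 for a fall, left fewer. They were applied to the fitted change on the log2(RPKM + 0.5) scale, which is smaller than the ratio of means for genes at low levels. In MDA-MB-231 labelled ERK5-ko they kept TGFB2 as higher and TGFBR2 as lower, where 2.80% and 1.07% of all genes were called. In MDA-MB-231 MEK5DD they kept TGFBI as higher and 0 genes as lower, beside 7.64% and 6.31%. In Hs-578T labelled ERK5-ko they kept INHBA as higher and TGFB3 as lower, beside 9.35% and 3.27%. INHBA was kept as higher in Hs-578T MEK5DD, and 0 genes as lower, beside 2.90% and 1.49%. Applied to ratios of mean RPKM instead, a choice made after seeing the data, the thresholds also took in INHBA as lower in MDA-MB-231 MEK5DD (ratio 0.493), and the other calls of the 10 genes were the same. All genes called higher and lower were then 3.52% and 2.19% in MDA-MB-231 ERK5-ko, 8.88% and 8.51% in MDA-MB-231 MEK5DD, 10.9% and 5.59% in Hs-578T ERK5-ko and 3.63% and 3.36% in Hs-578T MEK5DD.

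**Figure D2:**
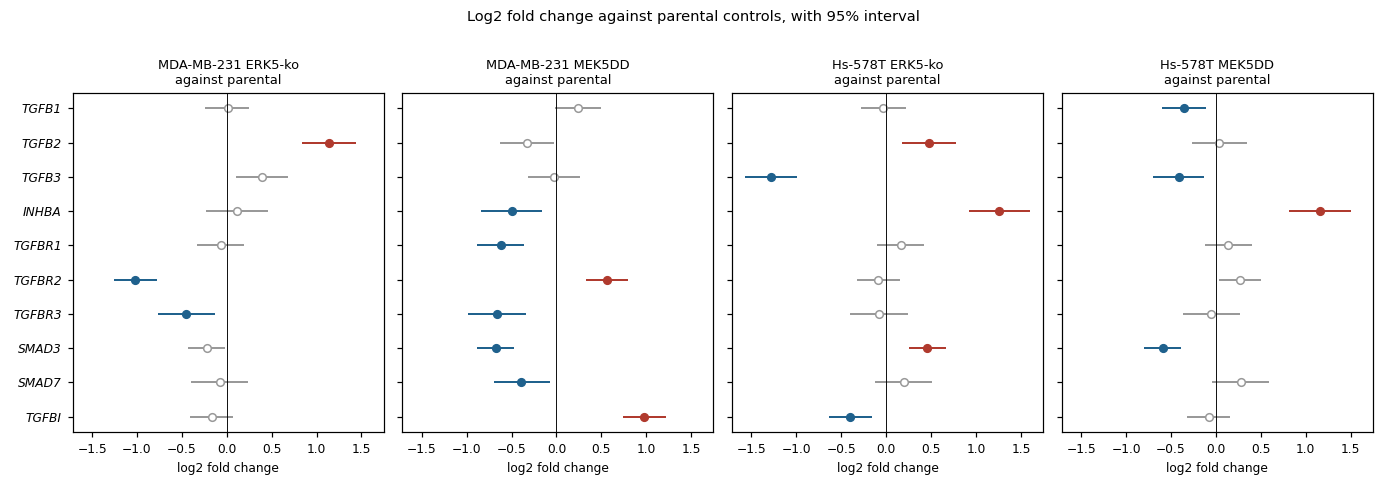
Log2 fold change against parental controls (horizontal axis, on the log2(RPKM + 0.5) scale) of each gene in the 4 comparisons, with its 95% interval from limma. Filled points passed an adjusted p of 0.05, red for higher and blue for lower, and open grey points did not. TGFB2 passed on the right of 0 with ERK5-ko in both lines, and SMAD3 on the left with MEK5DD in both.

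TGFB2 rose with ERK5-ko in both lines. TGFB2 (ENSG00000092969.11, chromosome 1, 218346235 to 218444619, plus strand) encodes TGF-β2, the isoform that depends most on the coreceptor TGFBR3 for binding. In MDA-MB-231 it had 35.1 and 34.0 RPKM in the parental controls, 83.6 and 70.1 with ERK5-ko, and 26.7 and 28.1 with MEK5DD. Both ERK5-ko libraries stood above all other MDA-MB-231 libraries, and both MEK5DD libraries below. The mean of 76.8 ± 9.59 (SD, n = 2) was 2.22 times that of the controls, a log2 fold change of 1.14 (SE 0.132, adjusted p = 0.000226, limma). For MEK5DD the log2 fold change was -0.33 (adjusted p = 0.0691, and 0.0137 with the replicate block). In Hs-578T TGFB2 had 45.1 and 53.7 RPKM in the controls, 65.8 and 72.2 in libraries labelled ERK5-ko and 44.7 and 57.2 with MEK5DD, so only ERK5-ko stood apart. The rise in Hs-578T labelled ERK5-ko was 1.40-fold, 0.48 on the log2 scale (SE 0.132, adjusted p = 0.0138). That call was lost with the line's own libraries alone (adjusted p = 0.0787). It was also lost without parental replicate 1 (log2 fold change 0.36) and without ERK5-ko replicate 2 (0.41). For MEK5DD in Hs-578T the log2 fold change was 0.04, with a 95% interval from -0.25 to 0.33. In the GENCODE annotation, which may differ from the gene models the authors counted on, TGFB2 shares 1371 exon bases with the noncoding TGFB2-OT1 on the same strand. Part of its reads may thus be counted elsewhere.

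TGFB3 moved most in Hs-578T. TGFB3 (ENSG00000119699.7, chromosome 14, 75958099 to 75982991, minus strand) encodes TGF-β3, which acts through the same receptors as TGF-β1. In Hs-578T it had 19.8 and 18.8 RPKM in the controls, 8.10 and 7.22 in libraries labelled ERK5-ko and 14.0 and 14.8 with MEK5DD. The 3 groups did not overlap. The mean with ERK5-ko, 7.66 ± 0.621 (SD, n = 2), was 0.397 times that of the controls, and TGFB3 fell by 1.28 on the log2 scale (SE 0.126, adjusted p = 1.88e-05). With MEK5DD it fell by 0.41 (SE 0.126, adjusted p = 0.0354). The MEK5DD call was lost with the line's own libraries alone (adjusted p = 0.098) and under median-ratio scaling (0.0867). It was also lost without parental replicate 1 (log2 fold change -0.37), parental replicate 2 (-0.45) or MEK5DD replicate 1 (-0.37). In MDA-MB-231 TGFB3 was low in every library, with 1.42 and 1.41 RPKM in the controls, 2.32 and 1.73 with ERK5-ko and 1.46 and 1.3 with MEK5DD, from 43 to 64 reads. Its log2 fold change in MDA-MB-231 labelled ERK5-ko was 0.39 (adjusted p = 0.0553, and 0.0322 with the replicate block). For MEK5DD it was -0.03, and quantile normalization put it at 0.11. In GENCODE TGFB3 shares 163 exon bases with TGFB3-AS1 on the opposite strand.

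INHBA was at or above 38.5 RPKM in every Hs-578T library and below 1 in every MDA-MB-231 library. INHBA (ENSG00000122641.9, chromosome 7, 41685114 to 41703108, minus strand) had 38.5 and 42.6 RPKM in Hs-578T parental controls, 90.6 and 105 with ERK5-ko and 79.6 and 104 with MEK5DD. Both modified groups lay above the controls and overlapped each other. The rise was 2.42-fold for ERK5-ko, 1.26 on the log2 scale (SE 0.151, adjusted p = 7.73e-05), and 2.26-fold for MEK5DD, 1.16 on that scale (SE 0.151, adjusted p = 0.000375). In MDA-MB-231 INHBA had 0.649 and 0.685 RPKM in the controls, 0.896 and 0.643 with ERK5-ko and 0.272 and 0.386 with MEK5DD, from 22 to 68 reads. Only the MEK5DD libraries stood apart, below the rest. INHBA fell by 0.50 on the log2(RPKM + 0.5) scale in MDA-MB-231 MEK5DD (adjusted p = 0.0207), a ratio of means of 0.493, and the added 0.5 makes the log2 value the smaller change. That call was lost without parental replicate 1 (adjusted p = 0.0744), parental replicate 2 (0.0974) or MEK5DD replicate 1 (0.149), and with a pseudocount of 1 (0.0762). For ERK5-ko in MDA-MB-231 the log2 fold change was 0.11, with a 95% interval from -0.22 to 0.45.

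TGFB1 did not pass with ERK5-ko in either line. TGFB1 (ENSG00000105329.9, chromosome 19, 41301587 to 41353911, minus strand) encodes TGF-β1, the isoform after which the family is named. In MDA-MB-231 it had 86.1 and 91.3 RPKM in the controls, 88.3 and 89.9 with ERK5-ko and 97.4 and 113 with MEK5DD. In Hs-578T the values were 273 and 287 in the controls, 297 and 253 with ERK5-ko and 206 and 234 with MEK5DD. The MEK5DD libraries stood above the others in MDA-MB-231 and below them in Hs-578T. In Hs-578T MEK5DD TGFB1 fell by 0.35 on the log2 scale (SE 0.108, adjusted p = 0.0354). That call was lost with the line's own libraries alone (adjusted p = 0.154) and under median-ratio scaling (0.112). It was also lost without parental replicate 1 (log2 fold change -0.39), parental replicate 2 (-0.32) or MEK5DD replicate 1 (-0.26). In MDA-MB-231 MEK5DD the log2 fold change was 0.24 (adjusted p = 0.099). For ERK5-ko it was 0.01 in MDA-MB-231 (95% interval -0.23 to 0.24) and -0.03 in Hs-578T (95% interval -0.27 to 0.21). In GENCODE TGFB1 shares 215 exon bases with HNRNPUL1 on the opposite strand. The library kit marks strand, but whether the counting used it is not given in the sources used here.

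Among the receptors TGFBR2 moved most, and in MDA-MB-231. TGFBR2 (ENSG00000163513.17, chromosome 3, 30606502 to 30694142, plus strand) encodes the type II receptor, which binds the ligand and phosphorylates the type I receptor. In MDA-MB-231 it had 45.3 and 44.2 RPKM in the controls, 23.5 and 20.3 in libraries labelled ERK5-ko and 67.5 and 64.8 with MEK5DD. The 3 groups did not overlap, with ERK5-ko below the controls and MEK5DD above. TGFBR2 fell by 1.02 on the log2 scale with ERK5-ko (SE 0.102, adjusted p = 7.24e-05), to 0.49 times the control mean. It rose by 0.56 with MEK5DD (SE 0.102, adjusted p = 0.000978), to 1.48 times. In Hs-578T the 2 control libraries had 19.4 and 20.8 RPKM, those labelled ERK5-ko 19.1 and 18.7 and those labelled MEK5DD 22.5 and 26.3. The log2 fold change in Hs-578T was -0.09 for ERK5-ko (95% interval -0.31 to 0.14) and 0.27 for MEK5DD (adjusted p = 0.0775, and 0.0365 with the replicate block). With ERK5-ko, the MDA-MB-231 level of TGFBR2 overlapped the Hs-578T libraries, as its order of group means shows, from 18.9 in Hs-578T ERK5-ko through 20.1 in the Hs-578T controls and 21.9 in MDA-MB-231 ERK5-ko to 24.4 in Hs-578T MEK5DD.

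The other receptors were lower in MDA-MB-231 MEK5DD and did not pass in Hs-578T. TGFBR1 (ENSG00000106799.12, chromosome 9, 99104038 to 99154192, plus strand), the type I receptor ALK5 that phosphorylates SMAD2 and SMAD3, had 49.3 and 44.6 RPKM in MDA-MB-231 controls, 47.3 and 42.4 with ERK5-ko and 31.1 and 29.5 with MEK5DD. It fell by 0.62 on the log2 scale with MEK5DD (SE 0.114, adjusted p = 0.00101), and for ERK5-ko the change was -0.07 (95% interval -0.32 to 0.18). Its Hs-578T values lay between 22.3 and 29 RPKM, with log2 fold changes of 0.16 for ERK5-ko (adjusted p = 0.275) and 0.14 for MEK5DD (adjusted p = 0.42). TGFBR3 (ENSG00000069702.10, chromosome 1, 91680343 to 91906335, minus strand), betaglycan, is a coreceptor that presents ligand to TGFBR2. It had 7.42 and 6.90 RPKM in MDA-MB-231 controls, 4.79 and 5.40 with ERK5-ko and 4.52 and 4.19 with MEK5DD. Both modified groups lay below the controls without overlap. TGFBR3 fell by 0.66 with MEK5DD (SE 0.142, adjusted p = 0.00304) and by 0.45 with ERK5-ko (SE 0.142, adjusted p = 0.0481). The ERK5-ko call sits at the threshold: it was lost without any single library of the 2 groups (adjusted p between 0.0992 and 0.244) and under 5 other settings. In Hs-578T TGFBR3 lay between 2.88 and 4.06 RPKM in all libraries, with log2 fold changes of -0.08 for ERK5-ko and -0.05 for MEK5DD (95% interval -0.36 to 0.26). The second value turned to 0.03 under median-ratio scaling and under quantile normalization.

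SMAD3 was lower with MEK5DD in both lines. SMAD3 (ENSG00000166949.15, chromosome 15, 67063763 to 67195195, plus strand) encodes the receptor-activated SMAD that binds DNA. In MDA-MB-231 it had 164 and 163 RPKM in the controls, 141 and 139 with ERK5-ko and 103 and 102 with MEK5DD. In Hs-578T it had 105 and 113 in the controls, 147 and 152 with ERK5-ko and 66.7 and 77.1 with MEK5DD. In each line the 3 groups did not overlap, and ERK5-ko lay below the controls in MDA-MB-231 and above them in Hs-578T. With MEK5DD SMAD3 fell by 0.67 on the log2 scale in MDA-MB-231 (SE 0.0879, adjusted p = 9.29e-05) and by 0.59 in Hs-578T (SE 0.0879, adjusted p = 0.000809). Neither value reached the fold threshold of the study, with ratios of 0.627 and 0.662. In Hs-578T labelled ERK5-ko it rose by 0.46 (SE 0.0879, adjusted p = 0.00177). In MDA-MB-231 labelled ERK5-ko the log2 fold change was -0.22 (adjusted p = 0.106, and 0.0424 with the replicate block). In GENCODE SMAD3 shares 182 exon bases with AC087482.1 on the opposite strand.

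SMAD7, the inhibitory SMAD that TGF-β signaling induces, differed more between lines than within them. SMAD7 (ENSG00000101665.8, chromosome 18, 48919853 to 48950711, minus strand) had 14.3 and 12.7 RPKM in MDA-MB-231 controls, 13.4 and 12.1 with ERK5-ko and 10.2 and 10.2 with MEK5DD. In Hs-578T it had 26.0 and 28.1 in the controls, 31.3 and 30.8 with ERK5-ko and 27.6 and 39.0 with MEK5DD. The MEK5DD libraries of MDA-MB-231 were its lowest, while those of Hs-578T were the most spread. In MDA-MB-231 MEK5DD SMAD7 fell by 0.39 on the log2 scale (adjusted p = 0.0439). The call was lost without any single library of the 2 groups (adjusted p between 0.0717 and 0.239), under limma voom on recovered reads (0.053) and under 4 other settings. In Hs-578T MEK5DD the log2 fold change was 0.28 (adjusted p = 0.18), and without MEK5DD replicate 1 it was 0.52 (adjusted p = 0.00839). For ERK5-ko it was -0.08 in MDA-MB-231 (adjusted p = 0.767) and 0.20 in Hs-578T (adjusted p = 0.288).

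TGFBI was higher with MEK5DD in MDA-MB-231. TGFBI (ENSG00000120708.16, chromosome 5, 136028895 to 136063818, plus strand) encodes a matrix protein that binds collagens and integrins and is induced by TGF-β. In MDA-MB-231 it had 82.2 and 88.5 RPKM in the controls, 80.1 and 71.9 with ERK5-ko and 168 and 170 with MEK5DD. MEK5DD stood far above the rest. TGFBI rose by 0.98 on the log2 scale there (SE 0.105, adjusted p = 1.94e-05), a ratio of 1.98, and for ERK5-ko the change was -0.17 (adjusted p = 0.319). In Hs-578T it had 2537 and 2602 RPKM in the controls, 2041 and 1867 with ERK5-ko and 2260 and 2622 with MEK5DD. The libraries labelled ERK5-ko were the lowest in Hs-578T. TGFBI fell by 0.40 in Hs-578T labelled ERK5-ko (SE 0.105, adjusted p = 0.0115). That call was lost with the line's own libraries alone (adjusted p = 0.173) and under quantile normalization, where the change was -0.12 (0.429). It was also lost without ERK5-ko replicate 2 (log2 fold change -0.33). For MEK5DD in Hs-578T the log2 fold change was -0.08 (adjusted p = 0.646).

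To ask whether an effect differed by cell line, the difference of its 2 log2 fold changes was tested, MDA-MB-231 minus Hs-578T. The MEK5DD groups were unlike in MAP2K5 RNA, with means of 186 RPKM in MDA-MB-231 (13.2 in controls) and 22.5 in Hs-578T (15.8). Cell line and MAP2K5 level thus cannot be told apart for MEK5DD, nor cell line and clone for ERK5-ko. For ERK5-ko, 2 of 10 genes were higher (TGFB2 and TGFB3) and 3 lower (INHBA, TGFBR2 and SMAD3), where 18.3% of all genes were higher and 21.5% lower. The difference was 1.67 for TGFB3 (SE 0.178, adjusted p = 3.86e-05), -1.15 for INHBA (adjusted p = 0.00159), -0.93 for TGFBR2 (adjusted p = 0.000453), -0.68 for SMAD3 (adjusted p = 0.00136) and 0.65 for TGFB2 (adjusted p = 0.0171). SMAD3 thus had a negative value in MDA-MB-231 and a rise in Hs-578T, while TGFB2 rose in both lines by different amounts. The TGFB2 difference did not pass without MDA-MB-231 parental replicate 2 (0.0559), MDA-MB-231 ERK5-ko replicate 1 (0.0707) or Hs-578T ERK5-ko replicate 1 (0.0641). For MEK5DD, 2 were higher (TGFBI and TGFB1) and 4 lower (INHBA, TGFBR1, SMAD7 and TGFBR3), beside 21.3% and 18.2% of all genes. Without MDA-MB-231 MEK5DD replicate 2, 3 of the 10 genes passed in place of 6. The difference was -1.65 for INHBA (SE 0.214, adjusted p = 0.000121), 1.06 for TGFBI (adjusted p = 0.000218), -0.76 for TGFBR1 (adjusted p = 0.00318), -0.66 for SMAD7 (adjusted p = 0.0198), -0.61 for TGFBR3 (adjusted p = 0.0321) and 0.59 for TGFB1 (adjusted p = 0.00974). TGFB1 no longer passed without MDA-MB-231 MEK5DD replicate 2 (0.0542), and SMAD7 did not pass without parental replicate 1 of either line or either MDA-MB-231 MEK5DD replicate (0.0517 to 0.082). TGFBR3 did not pass without any single MDA-MB-231 parental or MEK5DD library, Hs-578T parental replicate 1 or Hs-578T MEK5DD replicate 2 (0.0613 to 0.107). For SMAD3 the MEK5DD effects differed by -0.08, with a 95% interval from -0.35 to 0.20. For TGFB2 the difference was -0.37 (adjusted p = 0.145, and 0.0404 with the replicate block).

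**Figure D3:**
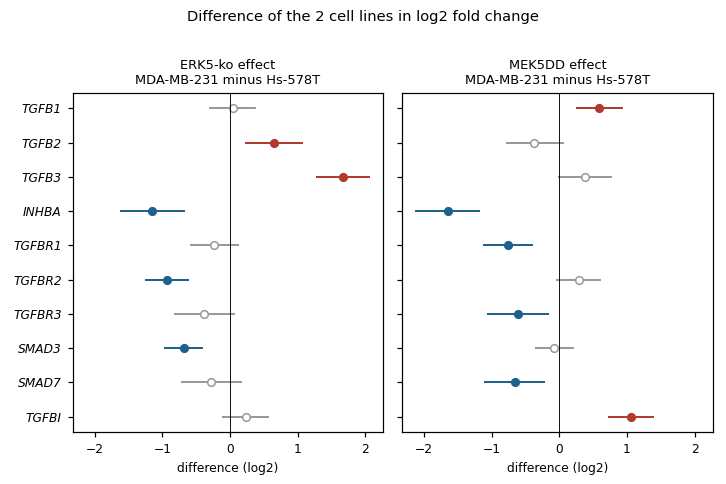
Difference between the cell lines in log2 fold change against parental controls, MDA-MB-231 minus Hs-578T (horizontal axis), for ERK5-ko and MEK5DD, with 95% intervals from limma. Filled points passed an adjusted p of 0.05. The SMAD3 point lies at -0.68 for ERK5-ko and at -0.08 for MEK5DD.

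Set directly against MEK5DD, the ERK5-ko libraries in MDA-MB-231 were higher in 5 of 10 genes and lower in 2, beside 27.1% and 27.9% of all genes. TGFB2 was 1.46 higher on the log2 scale (SE 0.132, adjusted p = 2.97e-06), INHBA 0.61, TGFBR1 0.56, SMAD3 0.45 and TGFB3 0.42. TGFBR2 was lower, with -1.58 (SE 0.102, adjusted p = 1.78e-07), 0.331 times the level with MEK5DD, and TGFBI was lower with -1.15 (adjusted p = 3.29e-06). TGFB3 did not pass without ERK5-ko replicate 1 (adjusted p = 0.152) or MEK5DD replicate 2 (0.101), nor INHBA without ERK5-ko replicate 1 (0.0545). SMAD7 differed by 0.31 (adjusted p = 0.0816, and 0.0407 with the replicate block). In Hs-578T, where the labels give both groups the same passages, 3 genes were higher with ERK5-ko and 3 lower, beside 30.7% and 19.2% of all genes. Of these 6, 3 passed without ERK5-ko replicate 2, and with the line's own libraries alone 2 of the 10 genes passed. SMAD3 was 2.08 times as high, 1.05 on the log2 scale (SE 0.0879, adjusted p = 2.84e-06), and TGFB3 was lower with -0.87 (SE 0.126, adjusted p = 0.000183). The other passing values were 0.44 for TGFB2, 0.32 for TGFB1, -0.36 for TGFBR2 and -0.32 for TGFBI, with adjusted p between 0.0129 and 0.0278. With the line's own libraries alone these did not pass (adjusted p between 0.0649 and 0.223). Each of these 4 was lost without 1 or another single library, TGFB2 without ERK5-ko replicate 2 (0.115) or MEK5DD replicate 1 (0.126), TGFB1 without replicate 1 of ERK5-ko (0.212) or of MEK5DD (0.135), and TGFBR2 and TGFBI without replicate 2 of ERK5-ko (0.0682 and 0.16) or of MEK5DD (0.0626 and 0.0971). Quantile normalization turned the TGFBI difference to 0.07. SMAD7 differed by -0.08, and passed with -0.33 without MEK5DD replicate 1 (0.0324). SMAD3 was higher with ERK5-ko than with MEK5DD in both lines. How the MEK5DD cells were made, and from which step the passages count, is not given. The effects of passage, of growth from single cells and of genotype thus cannot be told apart here either.

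The parental lines differed in all 10 genes. Compared to Hs-578T, MDA-MB-231 was higher in 4 (the 3 receptors and SMAD3) and lower in 6 (the 4 ligands, SMAD7 and TGFBI), where 46.0% of all genes were higher and 31.3% lower. The median of all tested genes was itself shifted by 0.19 on the log2 scale, and by -0.01 after median-ratio scaling. Relative to that median, INHBA was lower with -5.33, TGFBI with -5.10, TGFB3 with -3.56, TGFB1 with -1.85, SMAD7 with -1.17 and TGFB2 with -0.70. TGFBR2 was higher by 0.94 relative to the median, TGFBR1 by 0.76, TGFBR3 by 0.72 and SMAD3 by 0.40. The luminal markers KRT8 and, in the opposite direction, FOXA1 also differ between the lines, as given above, and their part was not tested. The adjusted p values of the unshifted differences lay between 2.95e-12 for TGFBI and 0.00434 for TGFB2. TGFBI spanned 71.9 to 2622 RPKM over the 12 libraries and INHBA 0.272 to 105. In the order of group means, the 3 Hs-578T groups held the highest places for TGFB1, TGFB3, INHBA, SMAD7 and TGFBI, and the lowest for TGFBR1 and TGFBR3. The lines were mixed in the order of TGFB2, TGFBR2 and SMAD3.

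Among 40 further pathway genes (latency proteins, other receptors, activin antagonists, SMADs and their regulators), 37 could be tested, since INHA and MSTN were under the filter and NODAL had no value. In MDA-MB-231 labelled ERK5-ko 3 were higher and 5 lower, where all genes had 6.91% and 10.4%. FST, the activin antagonist follistatin, rose from 39.3 ± 1.9 to 77.1 ± 4.57 RPKM (SD, n = 2 each), 0.96 on the log2 scale (adjusted p = 0.000181). FSTL3, a related antagonist, rose by 0.70, and LTBP3, a protein that binds latent TGF-β, by 0.71. LTBP1, another latent TGF-β binding protein, fell by 1.11 (adjusted p = 0.000171) and NRROS, which anchors latent TGF-β1, by 0.83. INHBB, the activin B subunit, went from 0.825 ± 0.102 to 0.172 ± 0.0308 RPKM, at 12 to 71 reads a library, a ratio of 0.208 that the added 0.5 turns into a log2 change of -0.98. In Hs-578T labelled ERK5-ko 5 were higher and 5 lower, beside 19.7% and 19.7% of all genes. FST rose there from 17.0 ± 2.31 to 83 ± 5.54 RPKM, 2.26 on the log2 scale (SE 0.109, adjusted p = 8.42e-08). NEDD4L, a ubiquitin ligase that acts on SMADs, rose by 0.66 and FURIN, a protease that processes TGF-β precursors, by 0.55. ACVR1, a type I receptor, fell by 0.64, LTBP3 by 0.44 and TGIF2, a corepressor that binds SMADs, by 0.41.

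With MEK5DD in MDA-MB-231, 5 of the 37 pathway genes were higher and 11 lower, beside 17.5% and 23.8% of all genes. LTBP3 went from 16.6 ± 0.171 to 1.66 ± 0.0824 RPKM and fell by 2.98 on the log2 scale (SE 0.115, adjusted p = 5.65e-09). FSTL3 fell by 1.06 (adjusted p = 1.09e-05) and INHBB went to 0.0533 ± 0.0202 RPKM, at 3 and 6 reads, a change of -1.26 on the same scale, where the added 0.5 again makes it smaller. GDF11, an activin-like ligand, rose by 0.87, SMAD1, a SMAD of the bone morphogenetic protein branch, by 0.63 and BAMBI, a decoy receptor, by 0.59. In Hs-578T MEK5DD 8 were higher and 6 lower, beside 6.44% and 17.0% of all genes, and 2 in all passed with the line's own libraries alone. LTBP2 rose by 0.77, INHBE, an activin family subunit, by 0.67 and the corepressor TGIF1 by 0.64. SMAD6, an inhibitory SMAD, fell by 0.82, LRRC32, which holds latent TGF-β on the cell surface, by 0.51 and TGIF2 by 0.48. Leaving out 1 library moved the Hs-578T counts by over 1.5 times in single cases, to 6 of 37 for ERK5-ko without ERK5-ko replicate 2 (and likewise 6 with the line's own libraries alone) and to 7 for MEK5DD without parental replicate 2. For ERK5-ko the median log2 fold change of the list was -0.08 in MDA-MB-231, beside -0.04 for all genes, and 0.00 in Hs-578T, beside 0.01. For MEK5DD it was -0.03 in MDA-MB-231, beside -0.01, and 0.03 in Hs-578T, beside -0.08.

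Of 30 genes known to respond to TGF-β, 29 could be tested, and NOX4 was under the filter. The list sets no direction of response for its genes, so its medians do not measure TGF-β signaling. In MDA-MB-231 labelled ERK5-ko 5 were higher and 9 lower, beside 6.91% and 10.4% of all genes, with a list median of -0.24 beside -0.04 for all genes. PDGFB, a platelet-derived growth factor chain, rose by 1.5 on the log2 scale, the scaffold protein NEDD9 by 1.39 and THBS1, a matrix protein that can free latent TGF-β, by 1.2. The cytokine IL11 went from 6.79 ± 0.653 to 0.992 ± 0.302 RPKM and fell by 2.30 (SE 0.142, adjusted p = 2.23e-06). COL1A2, a collagen chain, fell by 1.80 and the chemokine receptor CXCR4 by 1.48. In Hs-578T labelled ERK5-ko 9 were higher and 5 lower, where all genes had 19.7% each way, with a median of 0.23 beside 0.01. The smooth muscle genes ACTA2, from 140 ± 23.6 to 476 ± 26.7 RPKM, and TAGLN, from 172 ± 41.3 to 437 ± 18.4, rose by 1.77 and 1.36, and CTGF, a matricellular protein, by 1.23 (adjusted p = 1.16e-05). The transcription factor JUNB fell by 0.98, with control libraries at 127 and 74.9 RPKM, and the collagen chain COL1A1 fell by 0.88. CXCR4 had 20 and 18 reads in Hs-578T controls and 0 and 3 with ERK5-ko, a ratio of 0.0682 of reads summed over the group and scaled to library totals (95% exact interval 0.0135 to 0.215, which covers counting error only).

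With MEK5DD in MDA-MB-231, 9 of the 29 response genes were higher and 9 lower, where all genes had 17.5% and 23.8%, with a median of 0.03 beside -0.01 for all genes. SPHK1, a lipid kinase, rose by 1.62, TAGLN by 1.47 and CTGF by 1.01. CXCR4 went from 8.16 ± 0.346 to 0.523 ± 0.077 RPKM and fell by 3.08 on the log2 scale (SE 0.113, adjusted p = 3.71e-09), and NEDD9 fell by 2.72. COL1A2 fell by 2.87, with its 2 MEK5DD libraries at 5 and 55 reads. In Hs-578T MEK5DD 9 were higher and 5 lower, where all genes had 6.44% and 17.0%, with a median of 0.29 beside -0.08. With the line's own libraries alone 7 in all passed. IL11 rose by 1.28 (adjusted p = 0.000138) and TAGLN by 1.07. ACTA2 fell by 1.3, from 140 ± 23.6 to 56.5 ± 5.77 RPKM (adjusted p = 4.86e-05), and ID1, an inhibitor of helix-loop-helix factors, by 1.15. CXCR4 had 2 and 0 reads there, a ratio of 0.0563 on the same basis (95% interval 0.00657 to 0.218). TAGLN and CTGF rose with ERK5-ko in Hs-578T and with MEK5DD in MDA-MB-231. In Hs-578T MEK5DD TAGLN rose as well, and CTGF had 304 and 377 RPKM beside 243 and 220 in the controls. Both genes lay below the controls in MDA-MB-231 labelled ERK5-ko. TAGLN had 1.39 and 1.17 RPKM there beside 3.62 and 4.11, and CTGF had 86.5 and 76.7 beside 101 and 107.

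**Figure D4:**
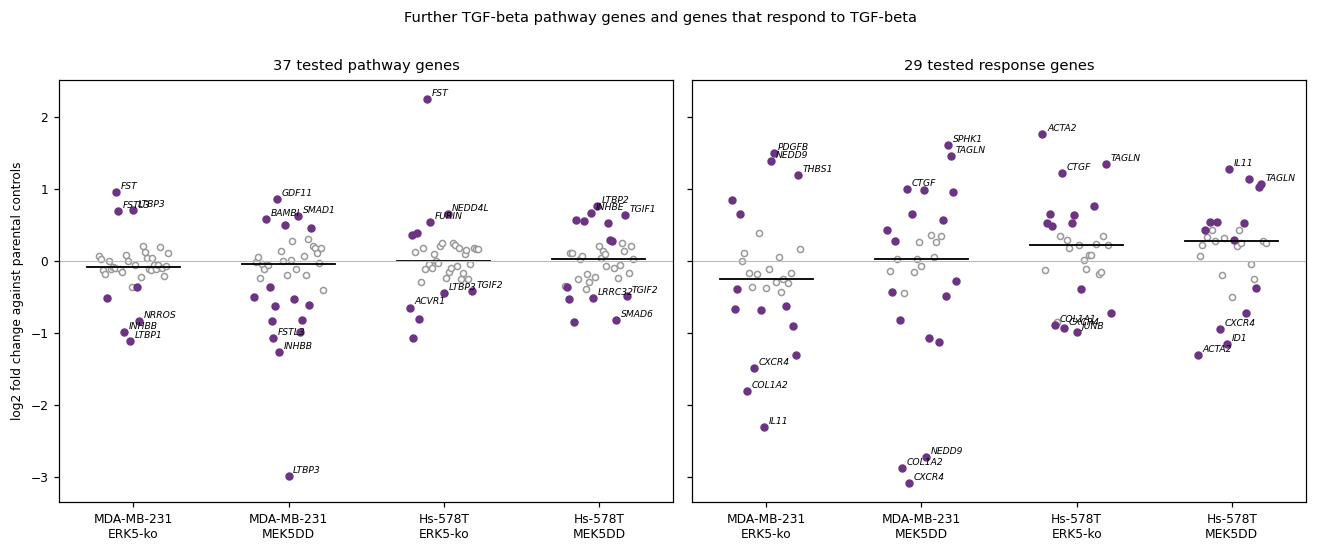
Log2 fold change against parental controls (vertical axis) of the 37 tested pathway genes and the 29 tested response genes in the 4 comparisons. Each point is a gene, filled where it passed an adjusted p of 0.05, and the black line is the median of the list. FST reaches 2.26 in Hs-578T labelled ERK5-ko, and LTBP3 lies at -2.98 in MDA-MB-231 MEK5DD.

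For the gene with the widest range in each role, the tested genes with the most similar level over the 6 group means were found by Pearson's r of log2(RPKM + 0.5), as a description over 6 points that fall into 2 cell lines. INHBA was most like FAM101B (r = 0.9993), LHX9 (0.9986) and TRIB1 (0.9986). For TGFBR2 they were PMVK (0.9821), IGDCC4 (0.9810) and LIN52 (0.9796). IGDCC4 went from 1.41 in MDA-MB-231 controls to 0.332 with ERK5-ko and 5.05 with MEK5DD on the back-transformed RPKM scale. SMAD7 was most like CSAD (0.9985) and GK5 (0.9969), and TGFBI like ELMO1 (0.9997), SH3PXD2B (0.9992) and AC037459.4 (0.9988).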

How the data were processed

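RNA of 12 libraries was sequenced, and groups were set from the labels, by cell line and modification. The authors deposited RPKM values, that is, reads on a gene per kilobase of gene model, scaled to library size. Per the labels, libraries were made with the TruSeq Stranded mRNA kit. The submitters' processing notes name bcl2fastq, Trimmomatic 0.32, TopHat2 2.1.1, R 3.3.1, DESeq2 1.12.4 and GRCh38. The counting tool and annotation are not given in the sources used here. RPKM fixes the levels relative to all reads of a library, so a change in a few abundant genes shifts the others.

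log2(RPKM + 0.5) of the 13737 protein-coding genes with at least 0.5 RPKM in at least 2 libraries entered limma 3.58.1 (R 4.3.3) with 1 mean for each of 6 groups, 6 residual degrees of freedom and variance moderated along the mean. Benjamini-Hochberg adjustment was made in each of 9 comparisons. The labels put the replicates of a group at consecutive passages and do not say whether these were kept as separate cultures, so p values measure only the spread between these libraries. Whole reads were recovered for all 32152 genes (tolerance 0.001 reads) from the RPKM steps. Gene lengths came from GENCODE for 11908 genes and were solved from the same values for the others. When totals were set off by 1%, 0 of 500 well-covered genes of the first kind came out whole. That control does not check the solved lengths. Replicates differed by more than counting noise (chi-square per degree of freedom 2.98 to 43.3). Same-numbered replicates of a line deviated together, with correlations of 0.107 to 0.541 over 6 pairs of groups, so a fit with the replicate number as a block was also made. The fit was tested on simulated data: of 200 changed genes in MDA-MB-231 ERK5-ko against parental, 99% passed, and 10 of 13450 unchanged ones did. The changed genes had folds of at least 2 in either direction and at least 1 RPKM. Libraries were drawn independently, with 1 dispersion for all genes. The simulation thus does not cover smaller folds, or the uneven and shared deviations of the real replicates.

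The genes and lists were chosen with earlier results of these data known. All 10 genes are named in every comparison, and of the pathway and response lists the 3 highest and 3 lowest passing genes with a mean of at least 1 RPKM, except that 2 genes these rules select are not reported here. Promoter windows are RefSeq's, 250 bases before a start. Alternatives changed the pseudocount, filter, scaling, gene types, test, block, libraries and call rule. Python 3.11.15 ran the remaining steps, with numpy 2.4.6, pandas 2.3.3 and matplotlib 3.10.9.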

Additional observations from a re-analysis of the deposited data

Results flagged for a closer look

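The effects of the 2 modifications differed between the cell lines for 11 results, by the test of the difference of log2 fold changes itself (MDA-MB-231 minus Hs-578T, limma). For ERK5-ko the difference was 0.65 for TGFB2, 1.67 for TGFB3, -1.15 for INHBA, -0.93 for TGFBR2 and -0.68 for SMAD3. For MEK5DD it was 0.59 for TGFB1, -1.65 for INHBA, -0.76 for TGFBR1, -0.61 for TGFBR3, -0.66 for SMAD7 and 1.06 for TGFBI. INHBA is in both lists, with fewer than 70 reads in each MDA-MB-231 library. Cell line cannot be told apart from clone for ERK5-ko, or from the level of MAP2K5 RNA for MEK5DD.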

How the results depend on the processing

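Of the 53 passing tests of the 10 genes over 9 comparisons, 36 passed under every alternative tried, the 10 between the parental lines among them. In all, 1310 values were recomputed: 1178 kept their direction and their side of the threshold, 77 kept direction and no longer passed, 21 kept direction and now passed, and 34 changed sign. Where a library was left out, the lone library of its group was assumed to vary like the other groups. The causes of these shifts were not tested. Depth was lowest behind INHBA and TGFB3 in MDA-MB-231, with at most 68 reads a library.

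With the replicate number as a block, which rests on the pairing of same-numbered libraries, the count of passing genes among the 10 in MDA-MB-231 ERK5-ko went from 3 to 5, and no other count moved by over 1.5 times. With only the cell line's own libraries the count among the 10 went to 3 for Hs-578T ERK5-ko, 2 for Hs-578T MEK5DD and 2 for ERK5-ko against MEK5DD in Hs-578T. Of the pathway genes 6 then passed for Hs-578T ERK5-ko and 2 for MEK5DD, and of the response genes 7 for Hs-578T MEK5DD. With the fold thresholds of the study the 10 genes gave 2 calls for Hs-578T ERK5-ko, 1 for MDA-MB-231 MEK5DD and 1 for Hs-578T MEK5DD. For ERK5-ko they left 4 pathway genes and 9 response genes in MDA-MB-231, and 3 and 6 in Hs-578T. For MEK5DD they left 6 and 11 in MDA-MB-231, and 3 and 6 in Hs-578T. These counts use folds on the log2(RPKM + 0.5) scale. On ratios of mean RPKM, chosen after seeing the data, the 10 genes gave 2 calls for Hs-578T ERK5-ko, 2 for MDA-MB-231 MEK5DD and 1 for Hs-578T MEK5DD. The pathway and response genes then gave 5 and 10 for MDA-MB-231 ERK5-ko, 5 and 8 for Hs-578T ERK5-ko, 7 and 12 for MDA-MB-231 MEK5DD, and 5 and 7 for Hs-578T MEK5DD.

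Median-ratio scaling turned the log2 difference to 0.00 for TGFBR1 in MDA-MB-231 ERK5-ko, to 0.03 for TGFBR3 and 0.02 for TGFBI in Hs-578T MEK5DD, and to -0.02 for INHBA and -0.09 for TGFBR1 in Hs-578T ERK5-ko against MEK5DD. Quantile normalization turned it to 0.01 for TGFB1 in Hs-578T ERK5-ko, 0.11 for TGFB3 in MDA-MB-231 MEK5DD, 0.03 for TGFBR3 in Hs-578T MEK5DD, -0.09 for TGFBR1 and 0.07 for TGFBI in Hs-578T ERK5-ko against MEK5DD, and -0.03 for TGFBI in the difference between lines for ERK5-ko. Of these, TGFBI in ERK5-ko against MEK5DD alone had passed.

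Leaving out 1 library gave counts among the 10 genes from 3 to 5 for Hs-578T ERK5-ko, 2 to 4 for Hs-578T MEK5DD, 3 to 5 for ERK5-ko against MEK5DD in Hs-578T and 3 to 7 for the line difference with MEK5DD. The pathway count ran from 6 to 11 for Hs-578T ERK5-ko and from 7 to 15 for Hs-578T MEK5DD. Single log2 values that changed sign were, in MDA-MB-231 ERK5-ko, TGFB1 from -0.03 to 0.05, INHBA from -0.03 to 0.26, TGFBR1 from -0.14 to 0.01 and SMAD7 from -0.16 to 0.00. In Hs-578T ERK5-ko TGFB1 ran from -0.14 to 0.08, and in MDA-MB-231 MEK5DD TGFB3 from -0.09 to 0.03. In Hs-578T MEK5DD TGFB2 ran from -0.14 to 0.22, TGFBR3 from -0.27 to 0.17 and TGFBI from -0.19 to 0.03. In Hs-578T ERK5-ko against MEK5DD INHBA ran from -0.09 to 0.29, TGFBR1 from -0.11 to 0.16, TGFBR3 from -0.24 to 0.19 and SMAD7 from -0.33 to 0.16. The line difference ran from -0.08 to 0.15 for TGFB1 with ERK5-ko and from -0.18 to 0.03 for SMAD3 with MEK5DD. None of these had passed.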
